A study of Mus musculus with 6 samples.

Results

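The genes described here are 10 regulators of the G1 phase of the cell cycle: the CDK inhibitors Cdkn1a, Cdkn1b, Cdkn2c and Cdkn2d, the D-type cyclins Ccnd2 and Ccnd3, their kinases Cdk4 and Cdk6, and the E-type cyclins Ccne1 and Ccne2. They were taken by symbol, and all 10 were found among the 18828 genes of the deposited table. Read counts came from T cells of the spleen of FVB mice, an inbred strain, whose type the labels give as WT. In 1 group the cells were treated with 50 µM urolithin A, a metabolite that gut bacteria make from dietary ellagitannins, and in the other with its solvent DMSO. Both groups were stimulated during the same 48 h in culture with beads carrying antibodies to CD3 and CD28. There were 3 libraries of each kind, marked a, b and c. Whether a letter stands for a mouse or a culture of its own is not stated, so p-values measure only the spread between these libraries, which may be technical.

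A resting T cell sits outside the cycle and enters G1 when its antigen receptor and costimulation are engaged. D-type cyclins then assemble with CDK4 or CDK6 and start to phosphorylate the retinoblastoma protein, which releases E2F factors. E2F induces the E-type cyclins, which activate CDK2 and carry the cell into S phase. Inhibitors of the INK4 family (Cdkn2c, Cdkn2d) bind CDK4 and CDK6 and keep cyclin D away, whereas the CIP/KIP inhibitors (Cdkn1a, encoding p21, and Cdkn1b, encoding p27) bind cyclin and kinase together and block CDK2 above all. In T cells p27 is known as a guard of quiescence, and p21 as the product of a p53 target gene.

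With urolithin A the transcript of Cdkn1a was 3.21-fold higher than with DMSO and that of the cyclin gene Ccnd2 1.46-fold higher, while Ccne1, Ccne2, Cdk4 and the INK4 gene Cdkn2d were lower. Thus 2 members rose and 4 fell at an adjusted p under 0.05 (limma voom, Benjamini-Hochberg over all genes tested). Cdkn1b, Cdkn2c, Ccnd3 and Cdk6 did not pass. Of all 14444 genes tested 33.7% passed, 17.7% higher and 16.0% lower, and 6 calls among 10 members are to be read against that share. Urolithin A and DMSO values were fully separate for 7 members, against 46.8% of all genes tested. The median log2 fold change was -0.13 over the members and 0.01 over all genes tested. Every member had at least 522 reads in every library, so all 10 passed the count filter.

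Stretches of upstream sequence are shown for some of the members on which the results turn, each with 1 kind of motif in capitals. RefSeq windows on GRCm38.p6, running from 250 bases before to 50 after a transcription start, were found for 8 of the 10 members, in 11 windows. The first window lies at an upstream start of Cdkn1a, 2790 bases before its downstream start (chr17:29090729-29091028, + strand). Its capitals mark 2 adjacent copies of the 10-base p53 consensus, which begin 51 bases before that upstream start. The second copy has 1 mismatch, a T at its first base in place of A or G. The window of Cdk4 (chr10:127063285-127063584, + strand) has the E-box CACGTG, bound by MYC and MAX, in capitals. The window of Ccne1 (chr7:38107441-38107740, - strand) has the GC box GGGCGG, bound by SP1, in capitals on either strand.
Cdkn1a upstream start: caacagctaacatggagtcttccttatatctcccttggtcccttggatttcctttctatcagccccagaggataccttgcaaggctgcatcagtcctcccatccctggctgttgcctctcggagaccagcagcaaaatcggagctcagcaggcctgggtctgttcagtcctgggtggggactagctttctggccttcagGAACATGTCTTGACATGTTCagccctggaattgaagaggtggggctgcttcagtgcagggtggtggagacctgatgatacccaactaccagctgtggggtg
Cdk4: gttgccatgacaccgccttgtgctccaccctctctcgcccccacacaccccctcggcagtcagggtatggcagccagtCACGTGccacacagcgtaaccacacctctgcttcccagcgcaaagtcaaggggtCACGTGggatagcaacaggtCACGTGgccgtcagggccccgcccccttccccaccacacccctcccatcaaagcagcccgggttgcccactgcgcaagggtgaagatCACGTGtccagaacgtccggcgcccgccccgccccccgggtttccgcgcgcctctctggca
Ccne1: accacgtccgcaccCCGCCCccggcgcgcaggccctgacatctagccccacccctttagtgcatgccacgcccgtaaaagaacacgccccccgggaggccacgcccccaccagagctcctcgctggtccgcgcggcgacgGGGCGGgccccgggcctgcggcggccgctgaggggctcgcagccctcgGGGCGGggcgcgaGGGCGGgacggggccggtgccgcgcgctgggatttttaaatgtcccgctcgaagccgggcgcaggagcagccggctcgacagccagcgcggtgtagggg

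A p53 element of this kind, with 1 mismatch allowed, occurred in 29 of all 32851 windows (0.0883%), and among the members in the upstream window of Cdkn1a alone. The E-box CACGTG, which reads the same on both strands, was in 7.15% of all windows. It stood at 4 places in the window of Cdk4, as in 0.0244% of all windows, and once each in windows of Cdk6 and Cdkn2c. The GC box was in 35.7% of all windows and in windows of 7 members. It was found at 4 places in that of Ccne1, at 5 in that of Cdkn2d and at 4 in a window of Cdkn2c, and 5.49% of all windows held it at 4 or more. The E2F letters TTTCCCGC, TTTGGCGC and TTTCGCGC (1.84% of all windows hold one) matched in no member window, and the TATA box TATAAA (13.6%) matched in that of Cdk6. No match of one motif overlapped a match of another in these windows. The windows first planned for display were those of Cdkn1a, Cdkn2d, Ccne1 and Ccnd2. No window was found for Ccnd2, and that of Cdkn2d is not shown. The p53 and E-box searches, and the choice to show Cdk4, were made after the data had been seen. A match is a description of letters only.

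**Figure D1:**
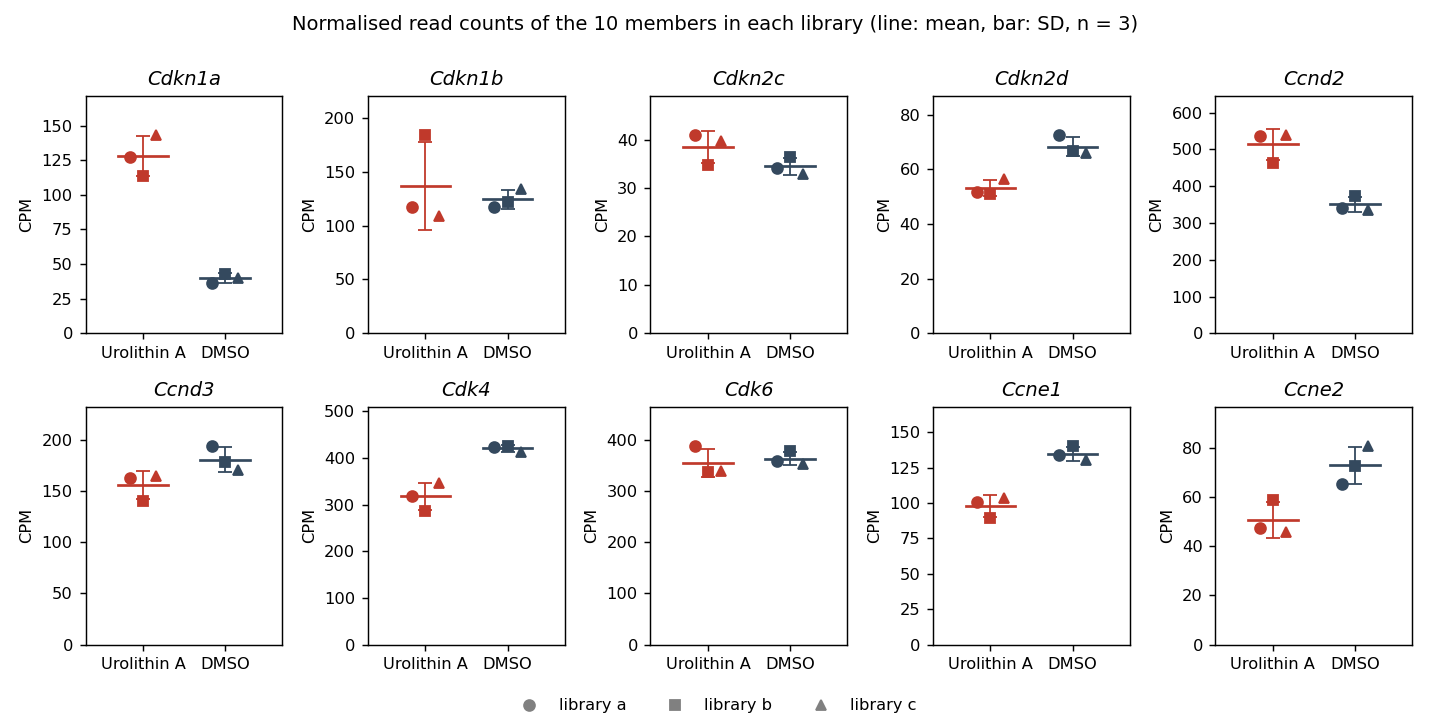
Normalised read count per 1000000 reads (CPM, y axis, starting at 0) of each member in the 3 urolithin A libraries (left, red) and the 3 DMSO libraries (right, dark); circles, squares and triangles are libraries a, b and c, the line is the mean and the bar the SD. Cdkn1a lies at 114 to 143 CPM with urolithin A and 36.3 to 43.0 CPM with DMSO, and Cdkn1b has 1 high value, 184 CPM in urolithin A library b.

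Among the inhibitors, Cdkn1a moved most. Levels here are counts per 1000000 reads after scaling of the libraries (CPM), and 3 values of a group stand in the order a, b, c. Cdkn1a was at 127, 114 and 143 CPM with urolithin A, and at 36.3, 43.0 and 40.3 CPM with DMSO. Each urolithin A library was above each DMSO library. The mean was 128 ± 14.7 CPM with urolithin A and 39.8 ± 3.38 CPM with DMSO (SD, n = 3 each), a log2 fold change of 1.68 ± 0.10 (SE; limma adjusted p = 1.52e-08). The 95% interval of the fold was 2.78 to 3.70, and 178 of the genes tested had a larger log2 fold change. In the coordinates of the deposited table Cdkn1a (ENSMUSG00000023067) runs on chromosome 17 from 29309950 to 29319701 on the + strand. The other members lie on chromosomes 4 (Cdkn2c, Ccne2), 5 (Cdk6), 6 (Cdkn1b, Ccnd2), 7 (Ccne1), 9 (Cdkn2d), 10 (Cdk4) and 17 (Ccnd3). The table's positions are not those of mm10, although the submitters' processing notes name mm10, and the sources used here do not name their build. A gene annotated on its - strand, 1700023B13Rik, shares 1046 bases with it and was itself higher (log2 fold change 0.88 ± 0.24, limma adjusted p = 0.0121) at 4.40 CPM with urolithin A and 2.40 CPM with DMSO. Shared bases are those of whole gene spans, introns included, and the overlap of exons was not measured. The sources used here do not say whether counting used the strand. Reads from any stretch where exons of such a pair overlap therefore cannot be told apart.

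Cdkn1b, the other CIP/KIP inhibitor, was at 117, 184 and 109 CPM with urolithin A, and at 117, 122 and 134 CPM with DMSO. The groups overlapped, since urolithin A library b was above every DMSO library and urolithin A library c below them all. The means were 137 ± 41.1 CPM with urolithin A and 124 ± 8.54 CPM with DMSO. The log2 fold change was 0.10 ± 0.20 (limma adjusted p = 0.73), with a 95% interval of the fold from 0.775 to 1.49. Without urolithin A library b the log2 fold change of Cdkn1b was -0.13 (limma adjusted p = 0.159), so its sign rests on that library. Cdkn1b encodes p27, whose level in cycling cells is set largely by degradation of the protein, which RNA counts do not show.

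Of the INK4 genes, whose products bind CDK4 and CDK6, Cdkn2d fell and Cdkn2c did not pass. Cdkn2d was at 51.6, 51.1 and 56.5 CPM with urolithin A, and at 72.5, 66.6 and 65.8 CPM with DMSO. All urolithin A values lay below all DMSO values, with means of 53.1 ± 2.97 CPM and 68.3 ± 3.62 CPM in urolithin A and DMSO libraries, and the log2 fold change was -0.37 ± 0.08 (limma adjusted p = 0.0025). Cdkn2c was at 40.9, 34.7 and 39.7 CPM with urolithin A, against 34.2, 36.3 and 32.9 CPM with DMSO. The groups of Cdkn2c overlapped through urolithin A library b and its log2 fold change of 0.16 ± 0.09 did not pass (limma adjusted p = 0.204; 95% interval of the fold 0.974 to 1.28). It passed without that library (log2 fold change 0.23, limma adjusted p = 0.0333). With scaling to library totals, Cdkn2d no longer passed (log2 fold change -0.28, limma adjusted p = 0.179). The remaining INK4 genes, Cdkn2a and Cdkn2b, were not analysed here, and the remaining CIP/KIP gene, Cdkn1c, was too low to test, at 0.268 ± 0.102 CPM with urolithin A and 0.347 ± 0.161 CPM with DMSO.

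Of the D-type cyclin genes, Ccnd2 rose and Ccnd3 did not pass. Ccnd2, the more abundant of the pair, was at 538, 464 and 539 CPM with urolithin A, and at 342, 373 and 337 CPM with DMSO. No value of one group reached the other, and the log2 fold change was 0.55 ± 0.08 (limma adjusted p = 7.66e-05; 95% interval of the fold 1.31 to 1.64). Ccnd3, the D-type cyclin that thymocytes depend on, was at 163, 140 and 164 CPM with urolithin A, against 194, 179 and 170 CPM with DMSO. Its groups did not overlap either, by a margin smaller than the spread within each. The log2 fold change of Ccnd3 was -0.22 ± 0.08 with an unadjusted p of 0.0173 and a limma adjusted p of 0.0511, on the far side of the threshold. It passed with median-of-ratios scaling (limma adjusted p = 0.0489), with no count filter (0.0499) and without urolithin A library c (0.0373), and not in the other 14 alternatives (0.0516 to 0.569). The Ccnd3 locus overlaps the - strand gene Bysl by 361 bases, which was also lower (log2 fold change -0.49 ± 0.13, limma adjusted p = 0.012).

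Of the kinases that D-type cyclins activate, Cdk4 fell and Cdk6 did not pass. Cdk4 was at 319, 287 and 346 CPM with urolithin A, and at 424, 425 and 413 CPM with DMSO. Every urolithin A value was lower, and the log2 fold change was -0.41 ± 0.07 (limma adjusted p = 0.000716). The call of Cdk4 was lost only with scaling to library totals (log2 fold change -0.32, limma adjusted p = 0.0785). Tspan31, on the opposite strand, shares 641 bases with Cdk4 and rose (log2 fold change 0.33 ± 0.09, limma adjusted p = 0.00793). Cdk6 was at 388, 339 and 341 CPM with urolithin A, against 359, 380 and 355 CPM with DMSO. The DMSO values of Cdk6 lay within the urolithin A range, and its log2 fold change was -0.03 ± 0.07 (limma adjusted p = 0.747), with a 95% interval of the fold from 0.876 to 1.09. The intervals of Cdk4 and Cdk6 do not meet on the fold scale, since that of Cdk4 ended at 0.841, but the difference between these genes was not tested.

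Both E-type cyclin genes fell. Ccne1 was at 101, 89.2 and 104 CPM with urolithin A, and at 134, 140 and 130 CPM with DMSO. The log2 fold change was -0.47 ± 0.08 (limma adjusted p = 0.000333). Ccne2 was at 47.6, 59.1 and 45.8 CPM with urolithin A, against 65.6, 72.7 and 80.8 CPM with DMSO. Neither gene had overlapping groups, and the log2 fold change of Ccne2 was -0.52 ± 0.11 (limma adjusted p = 0.0016). Both calls held in all 17 alternatives, with log2 fold changes of -0.51 to -0.38 for Ccne1 and -0.64 to -0.44 for Ccne2. The span of Ccne2, introns included, shares 5622 bases with the - strand gene Ints8. The log2 fold change of Ints8 was 0.01 ± 0.07 (limma adjusted p = 0.915).

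**Figure D2:**
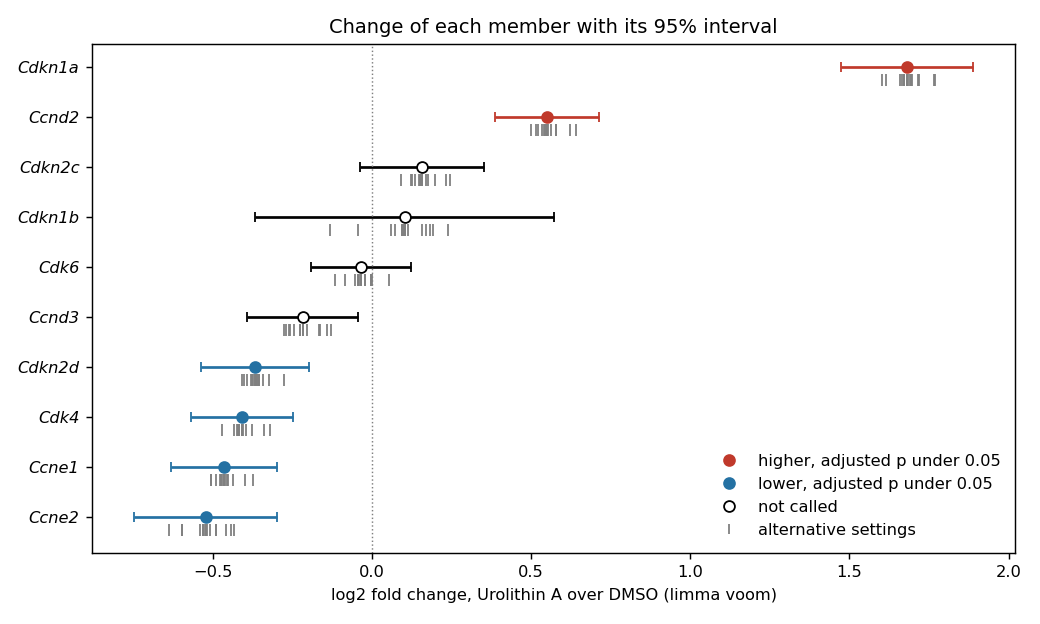
Log2 fold change of each member, urolithin A over DMSO (x axis), with its unadjusted 95% interval; red, blue and open points are genes called higher, called lower and not called, and grey ticks are the values under 17 alternative settings. Cdkn1a stands at 1.68 and Ccnd2 at 0.55, while Cdkn2d, Cdk4, Ccne1 and Ccne2 lie between -0.52 and -0.37.

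Divided by exon length, which allows levels to be compared between genes, Cdk4 was the most abundant member in both groups, at 97.8 ± 9.07 CPM per kb of exon with urolithin A and 129 ± 2.04 CPM per kb with DMSO. The levels of Cdkn1a were 36.1 ± 4.13 CPM per kb with urolithin A, the 4th of the 10 members, and 11.2 ± 0.953 CPM per kb with DMSO, the last. With urolithin A the level of Cdkn1a differed from those of its neighbours Ccne1 (36.8 ± 2.88 CPM per kb) and Cdkn2d (33.7 ± 1.89 CPM per kb) by less than its spread, as did that of Cdkn1b (30.1 ± 9.03 CPM per kb) from its neighbours. Ccnd2 stood second there, at 54.6 ± 4.55 CPM per kb, and Cdk6 seventh, at 25.4 ± 2.00 CPM per kb. At the low end with urolithin A were Ccnd3 at 17.7 ± 1.56, Ccne2 at 14.6 ± 2.07 and Cdkn2c at 14.3 ± 1.22 CPM per kb, the last 2 of these within their spread. With DMSO the order began with Cdk4, Ccne1 (50.7 ± 1.86 CPM per kb), Cdkn2d (43.4 ± 2.30) and Ccnd2 (37.2 ± 2.08), and Cdkn2c (12.8 ± 0.635) was next to last. Cdkn1b at 27.3 ± 1.88 and Cdk6 at 26.0 ± 0.965 CPM per kb differed by less than their spread with DMSO, as did Ccne2 at 20.9 ± 2.17 and Ccnd3 at 20.6 ± 1.35 CPM per kb. Exon lengths are those of GENCODE M21 on mm10, which may not be the models that were counted. By the longest transcript in place of all exons, Cdk4 stayed first in both groups, Cdkn1a was 3rd with urolithin A and 9th with DMSO, and Ccnd3 moved to 5th place in both groups.

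**Figure D3:**
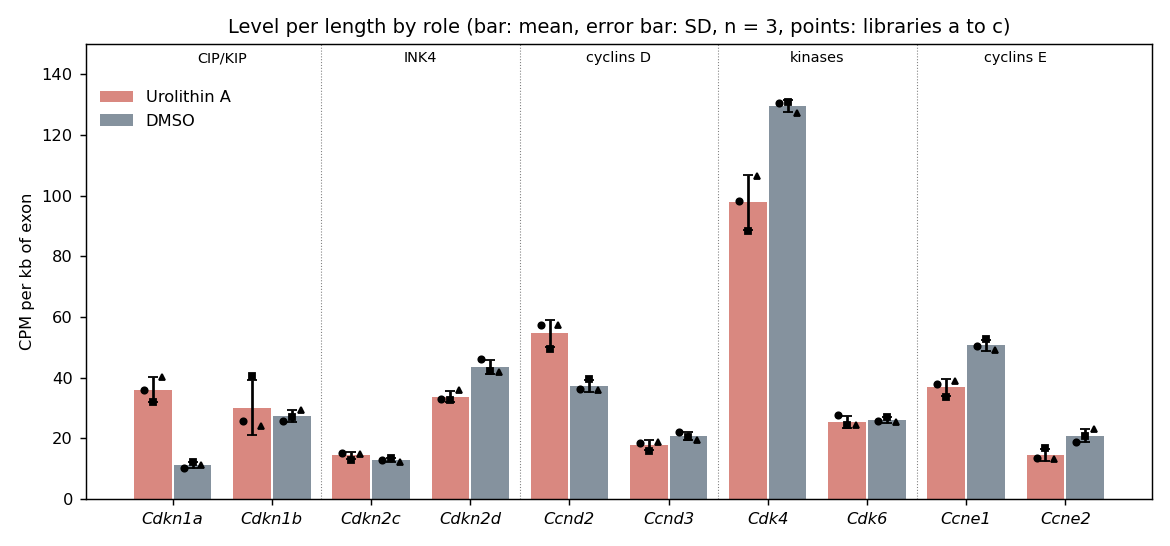
Level of each member in CPM per kb of exon (y axis, starting at 0), grouped by role; red bars are urolithin A means, grey bars DMSO means, error bars SD and points the 3 libraries of each. Cdkn1a has 36.1 CPM per kb under urolithin A and 11.2 CPM per kb under DMSO, and Cdk4 is the highest bar in both groups.

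Ratios of paired members within a library do not depend on how libraries are scaled to each other. The ratio of Ccnd2 to Ccnd3 level per kb was 3.08, 3.09 and 3.06 with urolithin A, and 1.65, 1.95 and 1.84 with DMSO. It was therefore nearly constant among the urolithin A libraries and higher in each of them than in any DMSO library. By the longest transcript the mean ratio was 2.01 with urolithin A and 1.18 with DMSO. The ratio of Cdkn1a to Cdkn1b level per kb was 1.39, 0.792 and 1.68 with urolithin A, and 0.397, 0.450 and 0.385 with DMSO. Each urolithin A ratio was above each DMSO ratio. By the longest transcript the mean of this ratio was 2.1998 with urolithin A and 0.702 with DMSO, so the size of the ratio depends on the length used. The ratio of Cdk6 to Cdk4 was 0.229 to 0.282 with urolithin A and 0.197 to 0.208 with DMSO, and that of Cdkn2d to Cdkn2c was 2.15 to 2.51 with urolithin A and 3.13 to 3.62 with DMSO. Only the ratio of Ccne1 to Ccne2 overlapped between groups, at 1.98 to 2.97 with urolithin A and 2.12 to 2.69 with DMSO. No test was run on these ratios: with 3 libraries a group an exact permutation test cannot give a two-sided p below 0.1.

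Of the summed level per kb of the 10 members, the CIP/KIP inhibitors held 17.0% to 20.9% in urolithin A libraries and 9.50% to 10.9% in DMSO libraries. The D-type cyclins held 18.9% to 20.9% with urolithin A and 14.7% to 15.5% with DMSO. The remaining classes held smaller shares with urolithin A: the E-type cyclins 13.9% to 14.6% against 18.3% to 19.2% with DMSO, the 2 kinases 32.5% to 35.0% against 40.7% to 41.3%, and the INK4 inhibitors 13.1% to 13.6% against 14.4% to 15.5%. These shares add up to the whole, so a rise in one lowers the others.

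**Figure D4:**
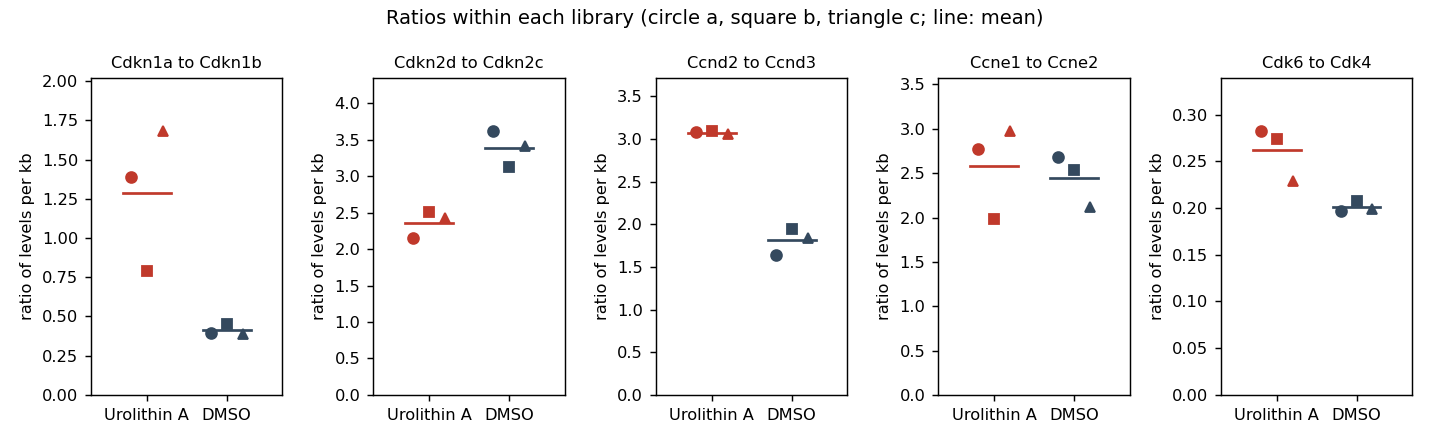
Ratio of the levels per kb of paired members in each library (y axes, starting at 0), urolithin A left in red and DMSO right in dark; circle, square and triangle are libraries a, b and c and the line is the mean. The Ccnd2 to Ccnd3 ratio lies at 3.06 to 3.09 with urolithin A and 1.65 to 1.95 with DMSO, and the Ccne1 to Ccne2 ratio is the one that overlaps.

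Of the 3 urolithin A libraries, b had the lowest CPM for 8 members and the highest for the other 2, Cdkn1b and Ccne2. Over all genes tested urolithin A library b was lowest for 39.0% and highest for 39.8%. In DMSO library b 17.6% of the counts belonged to Rn18s (18S ribosomal RNA), against 0.0687% to 3.97% in the other 5 libraries. This library had the highest CPM of the DMSO libraries for 6 members and the lowest for none, and over all genes tested it was highest for 32.4% and lowest for 27.7%. With both that library and urolithin A library a (the next highest Rn18s share) left out, the same 6 members were called, although 2673 genes were called in place of 4871 and Cdkn2d passed narrowly (limma adjusted p = 0.0491). Total counts ran from 12738059 to 19081219 per urolithin A library and from 16469483 to 18077217 per DMSO library.

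Of 23 other G1 regulators outside the 10 members, 20 were tested, 3 rose, 3 fell and 14 did not pass. The share called was 30%, near the 33.7% of all genes tested, with a median log2 fold change of -0.07 beside 0.01 over all genes tested. The genes that rose encode the retinoblastoma protein and a relative of it, and a partner of E2F. Rb1 was at 130 ± 17.0 CPM with urolithin A and 74.0 ± 8.36 CPM with DMSO (log2 fold change 0.81 ± 0.10, limma adjusted p = 4.41e-05). Rbl2, which encodes the pocket protein p130 of quiescent cells, had a log2 fold change of 0.69 ± 0.07, and Tfdp2, the E2F dimerisation partner, 0.55 ± 0.08. E2f4, the E2F that works with p130 in repression, was at 55.2 ± 5.42 CPM with urolithin A and 83.5 ± 1.79 CPM with DMSO (log2 fold change -0.61 ± 0.08, limma adjusted p = 7.02e-05). E2f1, an activating E2F, had a log2 fold change of -0.37 ± 0.09 and also fell. The remaining call was Cdc37, which encodes a chaperone of kinases such as CDK4, at -0.33 ± 0.09 (limma adjusted p = 0.0135). Cdc37, Cdk2 and Ccnd1 were named for their roles after their values had been seen. Cdk2, the kinase of cyclin E, was at -0.14 ± 0.07 on the log2 scale (limma adjusted p = 0.121) and Ccnd1 was at 1.11 ± 0.0699 CPM with urolithin A and 0.907 ± 0.179 CPM with DMSO.

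Genes of the ubiquitin ligases that degrade G1 proteins showed 1 call in 13, a share of 7.69% beside 33.7% of all genes tested, the median of the list being -0.05 on the log2 scale. The gene was Fbxo31, an F-box protein that targets cyclin D, at 18.4 ± 4.36 CPM with urolithin A and 28.4 ± 3.49 CPM with DMSO (log2 fold change -0.67 ± 0.15, limma adjusted p = 0.00433). Skp2 and Cks1b, which mark p27 for destruction and were picked here after their values had been seen, had log2 fold changes of -0.10 ± 0.09 and -0.09 ± 0.08 and did not pass (limma adjusted p = 0.417 and 0.442).

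Transcription factors known to act on CDK inhibitor or cyclin genes were called in 11 of 16, 8 higher and 3 lower, and their median was 0.28 on the log2 scale. The share called was 68.8%, beside 33.7% of all genes tested. Mxd1, a MAX partner that opposes MYC, was at 170 ± 5.58 CPM with urolithin A and 66.3 ± 1.76 CPM with DMSO (log2 fold change 1.36 ± 0.07, limma adjusted p = 5.23e-09). Its relative Mxd4 rose by 1.15 ± 0.09 and Bcl6, a repressor of several cycle genes, by 0.85 ± 0.24 on the log2 scale. The level of Bcl6 was low, at 3.97 ± 0.466 CPM with urolithin A and 2.18 ± 0.645 CPM with DMSO. Myc, which drives Cdk4 and Ccnd2 and represses Cdkn1a in other systems, was at 137 ± 23.4 CPM with urolithin A and 211 ± 10.3 CPM with DMSO (log2 fold change -0.64 ± 0.11, limma adjusted p = 0.000635). Of the forkhead factors in the list, Foxo4 had a log2 fold change of -0.54 ± 0.08 and fell, whereas Foxo1 and Foxo3 had 0.48 ± 0.08 and 0.61 ± 0.08 and rose. Foxo1, Foxo3 and the next gene were named after their values had been seen. Trp53, which encodes p53, was at 55.8 ± 9.76 CPM with urolithin A and 55.3 ± 2.21 CPM with DMSO (log2 fold change -0.01 ± 0.10, limma adjusted p = 0.962). Of 10 other targets of p53 all rose, a share of 100% beside 17.7% of all genes tested. This list and that of the transcription factors were chosen with earlier results of these data known. Their called shares are therefore descriptions and no independent evidence. The log2 fold changes of the 10 targets ran from 0.70 to 2.39 (median 1.23), and Cdkn1a at 1.68 lay inside that range. The steepest of the 10 were Phlda3 at 2.39 ± 0.14, Trp53inp1 at 2.00 ± 0.09 and Zmat3 at 1.94 ± 0.10 (limma adjusted p = 8.99e-08, 4.09e-09 and 4.49e-09). Whether p53 acted on any of these genes was not tested.

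Of 21 E2F targets that act in S phase, 9 fell, none rose and 12 did not pass, the median log2 fold change being -0.18 and the extremes -0.59 and 0.09. The share that fell was 42.9%, beside 16.0% of all genes tested, in a list also chosen with earlier results of these data known. Mybl2, a transcription factor induced at the transition, was at 37.0 ± 4.25 CPM with urolithin A and 55.5 ± 2.97 CPM with DMSO (log2 fold change -0.59 ± 0.09, limma adjusted p = 0.000233). Ezh2, a histone methyltransferase, and Tk1, thymidine kinase, both had log2 fold changes of -0.36. The count of 9 was 5 without DMSO library b, 2 with urolithin A library a left out as well, and 1 with scaling to library totals. Of all 14444 genes tested, 2311 were called lower with all libraries and trimmed-mean scaling, and 1683, 1244 and 934 in these settings in turn. In the last 2 of these settings the share of the list that fell was near that of all genes. Of 18 genes of G2 and mitosis 4 fell and 2 rose (median -0.03), a called share of 33.3% that is close to the 33.7% of all genes tested. Plk1, Cdc25c and Bub1, a mitotic kinase, a CDK1 phosphatase and a checkpoint kinase, had log2 fold changes of -0.48 ± 0.09, -0.36 ± 0.09 and -0.29 ± 0.09. Ccnb2, a mitotic cyclin, and Cdc25b rose by 0.30 ± 0.07 and 0.27 ± 0.07. The list had 1 call, lower, with both libraries left out, and 1 in each direction with scaling to library totals.

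**Figure D5:**
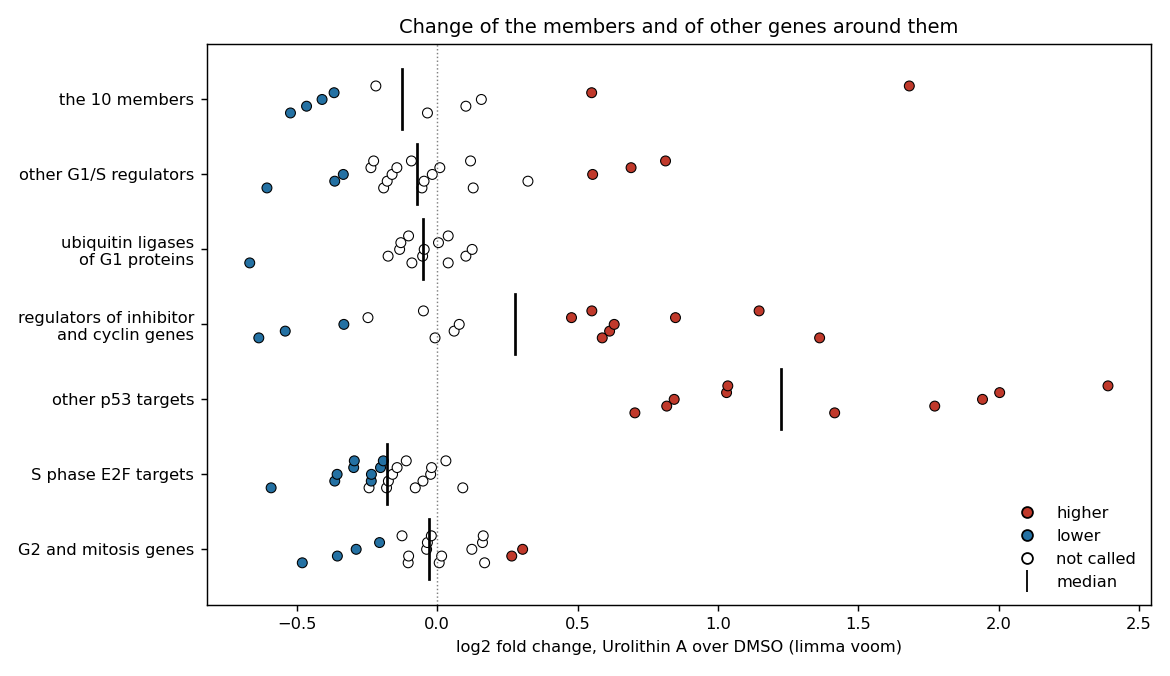
Log2 fold change, urolithin A over DMSO (x axis), of each tested gene in the 10 members and in 6 lists of genes around them; red points are genes called higher, blue called lower and white not called, and the black line is the list's median. The 10 other p53 targets all lie above 0.70, while the S phase E2F targets lie between -0.59 and 0.09. Members and lists were chosen with earlier results of these data known.

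The 10 T cell markers were well expressed in all libraries, with a summed level of 2606 to 2807 CPM with urolithin A and 2580 to 2726 CPM with DMSO. Of these, 2 rose and 2 fell, a called share of 40% that is near the 33.7% of all genes tested. Markers of B cells, which also express Ccnd2 and Ccnd3, summed to 17.4 to 20.4 CPM with urolithin A and 12.2 to 13.0 CPM with DMSO. In that list 3 of 6 rose (50%), beside 17.7% of all genes tested. Macrophage markers summed to 5.93 to 6.92 CPM with urolithin A and 3.90 to 5.45 CPM with DMSO, most of it Cd68, and the sums of the NK cell markers were 2.03 to 2.49 CPM and 1.39 to 2.12 CPM in urolithin A and DMSO libraries. Dendritic cell markers summed to 6.03 to 8.43 CPM with urolithin A and 5.63 to 6.58 CPM with DMSO. Of the 2 tested, Zbtb46 rose (log2 fold change 0.71 ± 0.19), while Xcr1 had a negative change that did not pass (-0.76 ± 0.28, limma adjusted p = 0.0527). Erythroid markers summed to 3.63 to 4.14 CPM with urolithin A and 2.02 to 2.504 CPM with DMSO (1 of 2 tested rose). The neutrophil genes S100a8, S100a9 and Camp were at 0 in all DMSO libraries and at most 0.151 CPM together with urolithin A. Of the stromal and endothelial markers, Pecam1, which T cells also express, made up nearly all of 99.5 to 127 CPM with urolithin A and 70.5 to 71.0 CPM with DMSO, and it rose. The part of other cell types in the members' values was not tested. In bulk RNA, fewer cells expressing a gene and less RNA per cell cannot be told apart, nor can a change in a gene from a change in the share of cells in G1.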

How the data were processed

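RNA was measured in 6 libraries, 3 per group. The submitters' processing notes name bcl2fastq 2.20.0.422, FastQC, STAR 2.5.2a, DESeq2 and the build mm10. Counter, strand setting and annotation are not named in the sources used here. In all, the authors deposited 2 identical tables, of which 1 was used. Their values are whole numbers written with a decimal comma, and these deposited values were read as counts per gene. The 3 per-library columns that match no labelled sample were left out. Of 18728 gene IDs shared with GENCODE M21, 388 have the same start and end there.

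Tested genes had 10 or more counts (at the median library size) in 3 or more libraries, and 15 or more in all. Scaling used trimmed means of M values in own code, trimming 30% of M and 5% of A at either end, and CPM use the tested genes' total times that factor. Log2 fold changes and moderated SE came from limma 3.58.1 in R 4.3.3 (voom with offset 0.5, lmFit, robust eBayes). The model held the group alone, and the Benjamini-Hochberg adjustment ran over all 14444 genes. No count model was run. The procedure was tested on simulated data with far fewer changed genes than were called here and no library rich in Rn18s. That test therefore does not cover these features of the data. Between libraries of a group, counts differed by 8.14 to 25.4 chi-square per degree of freedom, ribosomal RNA genes left out, where counting noise alone gives about 1, so all 6 were kept as separate libraries.

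From each list around the members, the 3 called genes with the largest change in the list's majority direction and the 2 with the largest in the other direction were named. The members and lists were chosen with earlier results of these data known. Alternatives covered scaling, the count filter, the test, a replicate block and left-out libraries.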

Additional observations from a re-analysis of the deposited data

How the results depend on the processing

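Each member was refitted under 17 alternatives. Cdkn1a, Ccnd2, Ccne1 and Ccne2 kept their direction and call in all of them. Scaling to library total counts, into which the Rn18s counts of DMSO library b enter, put the median log2 fold change of all genes at 0.095 and 70.6% of calls on the higher side, against 52.6% with trimmed-mean scaling. It called 3172 genes, 934 of them lower, and 2 members lower. Under it Cdkn2d was at -0.28, Cdk4 at -0.32 and Cdk6 at 0.0541 (limma adjusted p = 0.833). Cdkn1b turned to -0.043 with sample quality weights (limma adjusted p = 0.789). Leaving out 1 library at a time gave -0.1332 to 0.2398 for Cdkn1b, -0.1156 to 0.0007 for Cdk6, 0.0895 to 0.2321 for Cdkn2c and -0.2696 to -0.1431 for Ccnd3. The sign of Cdkn1b and Cdk6 turned without urolithin A library b. Ccnd3 passed at -0.2279 with median-of-ratios scaling and at -0.227 with no filter. With urolithin A library a and DMSO library b both left out, 2673 genes were called, 1429 higher and 1244 lower, from fewer samples. The causes of these shifts were not tested.

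With the letter as a replicate block, 4496 genes were called and no member changed its call. Deviations of libraries with the same letter correlated across genes at 0.072, -0.126 and -0.083 for a, b and c, so the letters were not taken to pair the samples. Each library correlated best with one of another letter (0.159 to 0.311), urolithin A library a with DMSO library b among them. Counts over the lists stayed within 1.5 times their value in 188 cases and did not in 16. Levels, ratios and shares per kb moved by less than 1 SD in 126 cases and by more in 34. All 34 came from using the longest transcript as the length. Leaving out 1 of 3 libraries cannot move a mean by 1 SD, so those cases say nothing about stability. With 3 libraries a group, a change of the size of that of Ccnd3 lies near the threshold.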
